A study of Homo sapiens with 6 samples.

Results

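The interferon-stimulated genes described here are 43 genes chosen by name as targets of interferon signalling, and all 43 were found among the 17297 gene symbols of the read-count table. The data were RNA-seq of LNCaP cells (written LnCaP in the labels), an established human prostate cancer cell line. The line pBabe-vector (genotype WT) carried the empty retroviral vector pBabe-puromycin, and the line pBabe-GNA13 (GNA13 overexpression) carried the same vector with wild-type cDNA of GNA13, the gene for the G protein subunit Gα13. Both lines had been transduced and kept under puromycin, were grown in RPMI with serum for 48 h on plates, and were sequenced in 3 biological replicates each. The labels name no interferon and no virus added to the cells. Each condition was 1 stable line and its replicates were cultures of that line, so the p-values measure the spread between cultures, and GNA13 cannot be told apart from other differences between the 2 lines. In the fit that compared the lines without regard to pairing, none of the 43 genes differed at an adjusted p under 0.05. When each pBabe-GNA13 library was compared with the pBabe-vector library that bears the same tag or number in its column heading, 14 of them did, against 19.7% of all genes. Of the 14, 8 were higher in pBabe-GNA13 (9.32% of all genes) and 6 lower (10.4% of all genes). Of these 14 calls, 5 stood whichever of the 3 pairs was left out, and 4 of the 5 also stood relative to the median of their chromosome. The share of all genes that stood in this way was not computed.

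Type I interferons bind the receptor IFNAR1/IFNAR2, whose kinases JAK1 and TYK2 pass the signal on by phosphorylation. The factor ISGF3, of which STAT2 and IRF9 are subunits, then binds the interferon-stimulated response element (ISRE) in front of many antiviral genes. The gamma-activated site (GAS) is the element of the response to interferon gamma. The genes so induced sense viral RNA, degrade it, block its translation or hold the virus at membranes, and many of them are kept at a low level in unstimulated cells. LNCaP has been described as a line with little JAK1 and weak interferon signalling.

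The core of the ISRE is shown here because it stood in front of many of these genes, among them members that differed in either direction. The core was searched as the letters GAAANNGAA on both strands in windows of 300 bases, 250 before and 50 after each RefSeq start site (GRCh38.p14). A window was given for 36 of the 43 genes, and 24 of the 36 (66.7%) held a match, against 2693 of 27305 genes with such windows (9.86%). The match is a match of letters and was not tested as a binding site. In the stretches below, all upstream of a start site and written 5′ to 3′ on the strand of the gene, the capitals mark the matches, which read TTCNNTTTC where they lie on the other strand, and overlapping matches run together.
ISG15, chr1:1013364-1013424, plus strand: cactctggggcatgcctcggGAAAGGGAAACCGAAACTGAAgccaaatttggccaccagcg
IFIT3, chr10:89332410-89332507, plus strand: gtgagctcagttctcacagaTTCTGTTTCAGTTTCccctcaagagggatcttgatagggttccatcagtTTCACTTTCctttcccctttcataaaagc
IFITM3, chr11:320867-320932, minus strand: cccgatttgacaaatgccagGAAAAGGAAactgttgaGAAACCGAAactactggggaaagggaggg
IFIH1, chr2:162318808-162318868, minus strand: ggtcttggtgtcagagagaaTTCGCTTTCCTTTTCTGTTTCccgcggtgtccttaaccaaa
OAS3, chr12:112938311-112938359, plus strand: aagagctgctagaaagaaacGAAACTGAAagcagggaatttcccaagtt
HERC5, chr4:88456975-88457074, plus strand: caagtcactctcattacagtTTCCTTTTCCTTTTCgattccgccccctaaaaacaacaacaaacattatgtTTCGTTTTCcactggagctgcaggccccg
SAMD9, chr7:93118087-93118135, minus strand: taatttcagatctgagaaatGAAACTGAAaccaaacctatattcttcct

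In the stretches shown, ISG15 and IFIH1 each held 3 overlapping matches in a row. IFIT3 and HERC5 held an overlapping pair and a single match there, and IFITM3 a pair of separate matches. The whole window held 4 matches for IFIH1 and 2 for OAS3, and another window of IFIT3 held 2. In the fit with the pairs, ISG15, IFIT3, IFITM3 and IFIH1 were lower in pBabe-GNA13, and OAS3, HERC5 and SAMD9 were higher. Of the 14 genes called in that fit 12 had a window, and 9 of the 12 held the core. DTX3L and EIF2AK2 also held it, at the start site itself, whereas ADAR, STAT2 and IFI35 did not hold these letters in the window. The letters TTCNNNGAA of the GAS occurred in the windows of 11 of 36 members (30.6%) and of 9.38% of all genes, and 7 member windows held both motifs. Of the 12 called genes with a window, 1 held the GAS letters, namely IFI35. IRF7, DHX58, OAS2, OASL, IFIT2, IFITM2 and USP18 had no entry in the promoter table.

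The libraries held 33002160 to 40628970 counts, and expression is given as CPM (reads scaled to a common library total, with TMM factors). A count of 3 was taken as the floor of detection and equals 0.0715 to 0.0935 CPM, a limit that covers counting error only. GNA13 stood at 747 to 886 CPM in pBabe-GNA13 and 65.4 to 76.7 CPM in pBabe-vector, as labelled. The 7 luminal prostate markers were all abundant, with KLK3, the gene for PSA, at 1836 to 4204 CPM. None of the 7 was called without the pairs as a block, and KLK2 (log2 fold change 0.93, edgeR adjusted p = 3.19e-11) and KLK3 (0.21, adjusted p = 0.00764) were called higher with it. Relative to chromosome medians and with the block 5 of the 7 were called. Of 6 markers of leukocytes, cells known for high levels of interferon-stimulated genes, only CD14 was in the table, at 0.116 to 0.206 CPM in pBabe-GNA13 and 0.0295 to 0.0954 CPM in pBabe-vector. The summed level of the 4 fibroblast and endothelial markers in the table (of 6) was 33.7 to 50.5 CPM in pBabe-GNA13 and 18.1 to 43.8 CPM in pBabe-vector, in overlapping ranges. Of these 4, COL1A2, with 96, 0 and 87 reads in pBabe-GNA13 and 2, 0 and 3 in pBabe-vector, and VWF (log2 fold change 0.67) were higher with the block (edgeR adjusted p = 2.14e-08 and 8.57e-06). COL1A1 (log2 fold change -0.01) and DCN, with 0 to 6 reads, were not called with it (edgeR adjusted p = 0.964 and 0.314). PECAM1 and CDH5 were not in the table. None of the 4 was called without the block, and the part of such cells in the results was not tested. One library of each line bears the tag std, the others the numbers 2 and 3, and values for a line are given in the order std, replicate 2, replicate 3.

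**Figure D1:**
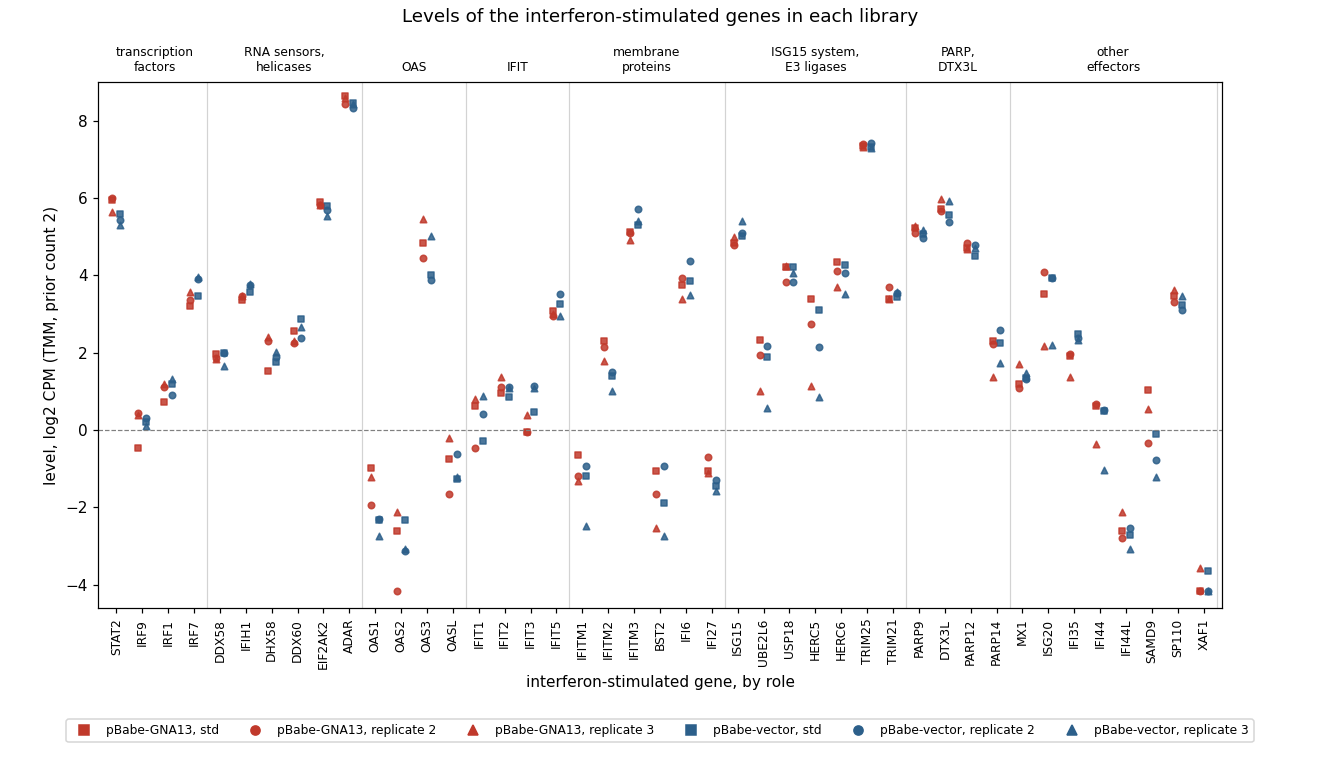
Levels of the 43 interferon-stimulated genes in each of the 6 libraries, in log2 CPM on the vertical axis, grouped by role along the horizontal axis. Red marks are pBabe-GNA13 and blue marks pBabe-vector, the shape gives the pair of libraries, and the dashed line is 1 CPM. ADAR and TRIM25 stand above the rest, 9 genes have a mean under 1 CPM, and the colours mostly intermingle.

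Most of the genes were expressed without added interferon. A mean of at least 1 CPM over the 6 libraries was reached by 34 of the 43, against 14059 of all 17297 genes in the table. The other 9, OAS1, OAS2, OASL, IFITM1, BST2, IFI27, IFI44L, SAMD9 and XAF1, are given apart. Per kilobase of exon (CPM divided by the summed exon length in Gencode 44), ISG15 was first with 37.9 CPM per kb, followed by ADAR with 29.2, IFI6 with 15.2, IFITM3 with 13.6 and TRIM25 with 13.1 CPM per kb. At the other end stood OAS2 with 0.00810 CPM per kb and XAF1, an apoptosis factor, with 0.00133 CPM per kb. XAF1 was detected with 1 read in each of 1 pBabe-GNA13 and 1 pBabe-vector library and with no read in the other 4. Summed over the 43 genes, the level was 993 to 1058 CPM in pBabe-GNA13 and 966 to 978 CPM in pBabe-vector, and ADAR and TRIM25 made up 50.9% to 53.1% of each sum.

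The question of the comparison was how overexpression of GNA13 changed gene expression in LNCaP. In edgeR (quasi-likelihood F test, all genes fitted, Benjamini-Hochberg adjustment, the line as the only term) 0 of the 43 genes were called at an adjusted p under 0.05, against 0.139% of all genes. DESeq2 and limma-trend called 0 of them as well. At an unadjusted p under 0.05 there were 8 of 43, against 8.46% of all genes. STAT2, OAS1, IFITM2 and SAMD9 were the higher ones among these 8 (4.78% of all genes), and IFIT3, IFITM3, ISG15 and IFI35 the lower ones (3.68% of all genes). Fold changes are log2 values of pBabe-GNA13 against pBabe-vector, with their standard error (SE). The median log2 fold change was 0.06 over the 43 genes, 0.01 over the 34 with at least 1 CPM, and below 0.01 in size over all genes. Of the 43 genes, 27 had a value above 0 and 16 below, against 48.6% of all genes above 0. The 9 genes under 1 CPM were all among those above 0. Of the 34 with at least 1 CPM, 18 were above 0 and 16 below, against 6518 of 14059 genes at that level above 0. Over the 43 genes the median within a pair of libraries was 0.07 in the std pair, 0.00 in replicate 2 and 0.17 in replicate 3.

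With the pair of libraries as a block, edgeR called 14 of the 43 genes, against 19.7% of all genes. The 8 higher genes were STAT2, OAS3, IFITM2, SAMD9, HERC5, EIF2AK2, ADAR and DTX3L (9.32% of all genes were called higher). The 6 lower genes were IRF7, IFIH1, IFIT3, IFITM3, ISG15 and IFI35 (10.4% of all genes were called lower). In bulk RNA, a change in the share of cells that express a gene and a change in RNA per cell cannot be told apart. Among the 34 genes with at least 1 CPM it called 13, against 23.3% of all genes at that level. Of the 43 genes, 11 were called without the std pair, 9 without replicate 2 and 8 without replicate 3. The count over all genes also fell each time a pair was left out, and is given in the closing section. STAT2, IRF7, OAS3, IFITM2 and IFITM3 were called with every pair kept and whichever pair was left out. The share of all genes called in this way was not computed. In 10 of the 43 genes the libraries of the lines did not overlap in level, against 14.1% of all genes. STAT2, EIF2AK2, OAS1, IFITM2 and IFI27 were the 5 higher in each pBabe-GNA13 library (7.3% of all genes), and IFIH1, IFIT3, IFITM3, ISG15 and IFI35 the 5 lower (6.79% of all genes). OAS1 and IFI27 have a mean under 1 CPM. Among the 34 genes with at least 1 CPM, 3 were higher and 5 lower in this way, against 1014 and 1053 of 14059 genes at that level. The difference had the same sign in every pair for 22 of the 43 genes, against 48% of all genes. For any of them the smallest p of an exact permutation test with 3 libraries a line, two-sided, is 0.1.

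**Figure D2:**
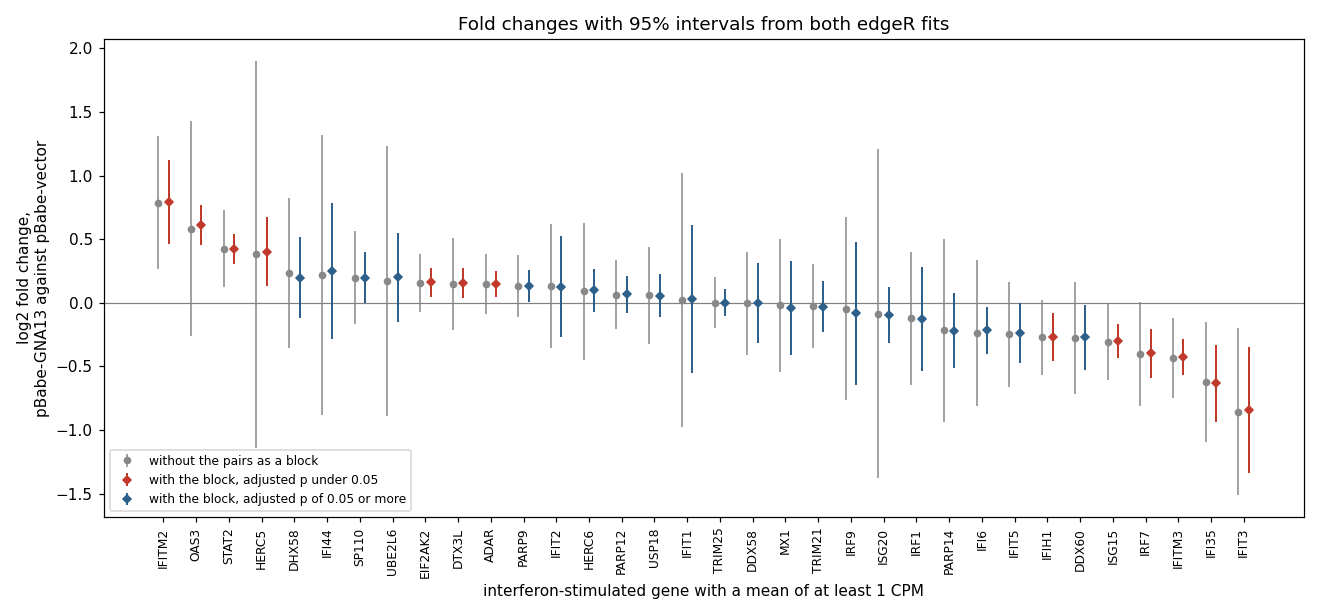
Log2 fold change of the 34 genes with a mean of at least 1 CPM, ordered from the highest to the lowest, with 95% intervals. Grey points come from the edgeR fit without the pairs as a block, and diamonds from the fit with them, red where the adjusted p was under 0.05. The point estimates of both fits nearly coincide and the intervals shrink with the block, most of all for HERC5, ISG20 and UBE2L6.

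Among the transcription factors, STAT2, the subunit that gives ISGF3 its activation domain, was higher and IRF7, which drives the second wave of type I interferon genes, was lower. STAT2 stood at 61.2, 64.0 and 49.7 CPM in pBabe-GNA13 and at 47.8, 43.1 and 39.2 CPM in pBabe-vector. Every pBabe-GNA13 library lay above every pBabe-vector library, and its log2 fold change was 0.43 (SE 0.13, edgeR adjusted p = 0.387) without the block and 0.42 (SE 0.06, adjusted p = 4.25e-06) with it. STAT2 lies on chromosome 12 (minus strand, 56341597 to 56360203 on GRCh38), whose genes had a median log2 fold change of 0.29. Relative to that median the log2 fold change of STAT2 was 0.13 with the block (adjusted p = 0.141), so the call was lost. IRF7 was at 9.18, 10.3 and 11.7 CPM in pBabe-GNA13 and 11.02, 15.0 and 15.4 CPM in pBabe-vector. The groups overlapped in 1 library of each line, and IRF7 was lower in all 3 pairs. Its log2 fold change was -0.40 in both fits, with a SE of 0.18 and an edgeR adjusted p of 0.596 without the block, and a SE of 0.09 and an adjusted p of 0.00271 with it. IRF9, the DNA-binding subunit of ISGF3, was scarce at 0.669 to 1.29 CPM, and its log2 fold change with the block was -0.08 (95% interval -0.64 to 0.48). For IRF1, an activator that responds to interferon gamma above all, the range was 1.61 to 2.43 CPM and the value with the block -0.13 (95% interval -0.54 to 0.28).

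Of the 6 RNA sensors and helicases, EIF2AK2 and ADAR were higher with the block, IFIH1 was lower, and DDX58, DHX58 and DDX60 were not called. IFIH1 encodes MDA5, the sensor of long double-stranded RNA. It stood at 10.2, 11.05 and 10.96 CPM in pBabe-GNA13 and 11.9, 13.4 and 13.6 CPM in pBabe-vector, with no overlap between the lines. The log2 fold change of IFIH1 was -0.27 in both fits (edgeR adjusted p = 0.641 without and 0.0381 with the block). In none of the fits that left out 1 pair was it called, and the adjusted p rose to 0.244. EIF2AK2, the gene for PKR, which halts translation on binding double-stranded RNA, ranged over 56.2 to 59.1 CPM in pBabe-GNA13 and 46.6 to 55.4 CPM in pBabe-vector. The lines did not overlap, but the difference was small. EIF2AK2 had a log2 fold change of 0.16 (SE 0.06, edgeR adjusted p = 0.0423 with the block and 0.78 without). GPATCH11 on the other strand overlaps EIF2AK2 in the annotation, and its log2 fold change with the block was 0.205 (edgeR adjusted p = 0.0902). ADAR, which edits adenosine to inosine in double-stranded RNA and so keeps MDA5 and PKR quiet, was at 399.9, 342 and 386 CPM in pBabe-GNA13 and 349, 321 and 347 CPM in pBabe-vector. Replicate 2 of pBabe-GNA13 fell within the range of pBabe-vector, and the difference on the log2 scale was 0.15 (SE 0.05, adjusted p = 0.0366 with the block and 0.831 without). Relative to the median of their chromosomes, neither EIF2AK2 (log2 fold change 0.08, adjusted p = 0.384) nor ADAR (0.12, adjusted p = 0.101) was called with the block. Of the fits that left out a pair, only the one without the std pair called EIF2AK2 and only the one without replicate 2 called ADAR, with adjusted p of up to 0.412 and 0.15.

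The 3 sensors and helicases that were not called had log2 fold changes of either sign. DDX58, the gene for RIG-I, was at 3.12 to 3.93 CPM, with a log2 fold change within 0.01 of 0 in both fits (95% interval -0.31 to 0.31 with the block). DHX58 encodes LGP2, which tunes RIG-I and MDA5, and was at 0.20 (95% interval -0.12 to 0.52). DDX60, a helicase reported to aid RIG-I, was at -0.27 (95% interval -0.53 to -0.01), lower in all 3 pairs, with an edgeR adjusted p of 0.138.

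The OAS family makes 2′-5′ oligoadenylates, which switch on the nuclease RNase L, and OAS3 was its abundant member. OAS3 stood at 28.4, 21.7 and 44.3 CPM in pBabe-GNA13 and at 15.98, 14.6 and 32.5 CPM in pBabe-vector. Replicate 3 was the highest in both lines, so that the groups overlapped although OAS3 was higher in pBabe-GNA13 in all 3 pairs. Its log2 fold change was 0.58 (SE 0.36, adjusted p = 0.785) without the block and 0.61 (SE 0.08, adjusted p = 1e-06) with it. All 4 OAS genes lie on chromosome 12, and relative to its median the log2 fold change of OAS3 was 0.32 with the block, still called (adjusted p = 0.00559). OAS1 was read 17, 7 and 13 times in pBabe-GNA13 and 6, 5 and 3 times in pBabe-vector. These groups did not overlap, but the log2 fold change of 1.40 had a 95% interval from 0.16 to 2.64 with the block and an adjusted p of 0.11. OAS2, with 0 to 6 reads in a library, and OASL, an OAS-like protein without synthetase activity, with 9 to 28 reads, gave no direction that held. Relative to the chromosome median both turned below 0. Whether reads were split in counting among the related genes OAS1, OAS2 and OAS3 was not tested.

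In the IFIT family, IFIT1 binds viral RNA that lacks the cap methylation of the host. IFIT3, which stabilises IFIT1 on RNA, was the one member called with the block. It stood at 0.910, 0.911 and 1.25 CPM in pBabe-GNA13 and 1.34, 2.16 and 2.09 CPM in pBabe-vector. The highest pBabe-GNA13 library lay below the lowest pBabe-vector library. The log2 fold change of IFIT3 was -0.86 (SE 0.28, edgeR adjusted p = 0.421) without the block, the largest in size among the 34 genes with at least 1 CPM. With the block it was -0.84 (SE 0.24, adjusted p = 0.0124), and without replicate 2 the adjusted p was 0.123. These were 31 to 73 reads per library. The 4 genes lie side by side on chromosome 10, and with the block IFIT1 was at 0.03 (95% interval -0.55 to 0.61), IFIT2 at 0.13 (-0.27 to 0.52) and IFIT5 at -0.24 (-0.47 to just above 0). The gene LIPA on the other strand overlaps IFIT1, IFIT2 and IFIT3 in the annotation, and its log2 fold change with the block was -0.05 (adjusted p = 0.626).

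Among the membrane proteins, neighbouring genes of the IFITM family, which block the entry of viruses at cell membranes, went in opposite directions. IFITM2 was at 4.90, 4.38 and 3.37 CPM in pBabe-GNA13 and 2.58, 2.78 and 1.96 CPM in pBabe-vector. IFITM3 was at 34.7, 34.2 and 30.1 CPM in pBabe-GNA13 and 39.2, 52.4 and 42.2 CPM in pBabe-vector. Neither gene overlapped between the lines, IFITM2 higher and IFITM3 lower in every pBabe-GNA13 library. The log2 fold change of IFITM2 was 0.79 (SE 0.22, edgeR adjusted p = 0.358) without the block and 0.79 (SE 0.16, adjusted p = 0.000662) with it. For IFITM3 the values were -0.43 (SE 0.13, adjusted p = 0.395) and -0.43 (SE 0.07, adjusted p = 4.57e-05). Leaving out a pair kept both calls, with an adjusted p of at most 0.00505 for IFITM2 and 0.000412 for IFITM3. IFITM1 was read 4 to 22 times in a library and was not called (adjusted p = 0.562 with the block). The 3 genes are neighbours on chromosome 11 and close in sequence, so reads could have been split among them.

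IFI6, a mitochondrial and endoplasmic reticulum protein, was abundant at 10.4 to 20.6 CPM and lower in all 3 pairs. Its log2 fold change with the block was -0.22 (95% interval -0.40 to -0.03, adjusted p = 0.0976). BST2, or tetherin, which holds budding virus at the cell surface, was read 3 to 16 times in a library and turned sign with the library left out. IFI27, a small mitochondrial protein that serves as a sensitive marker of interferon exposure, was read 14 to 19 times in pBabe-GNA13 and 9 to 13 times in pBabe-vector. The groups did not overlap, and the adjusted p with the block was 0.442.

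ISG15 is a ubiquitin-like protein, UBE2L6 the enzyme that passes it on, HERC5 the main human ligase with HERC6 its relative, and USP18 the protease that removes it and also restrains IFNAR2. ISG15 and HERC5 were called with the block, in opposite directions. ISG15 was at 28.7, 27.7 and 31.6 CPM in pBabe-GNA13 and 32.6, 34.2 and 42.2 CPM in pBabe-vector. No library of one line overlapped the other. For ISG15 the fold change on the log2 scale was -0.31 (SE 0.13, edgeR adjusted p = 0.578) without the block and -0.30 (SE 0.07, adjusted p = 0.00126) with it, and without replicate 3 the adjusted p was 0.0643. HERC5 was at 10.5, 6.61 and 2.15 CPM in pBabe-GNA13 and 8.56, 4.37 and 1.75 CPM in pBabe-vector. The pairs differed far more than the lines did, and within each pair pBabe-GNA13 was higher. Its log2 fold change was 0.38 (SE 0.65, adjusted p = 0.976) without and 0.40 (SE 0.13, adjusted p = 0.0312) with the block. Of the fits that left out a pair, only the one without replicate 3 called HERC5.

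The other members of the ISG15 system and the TRIM ligases were not called. USP18 was at 14.1 to 18.8 CPM, with a log2 fold change with the block of 0.06 (95% interval -0.11 to 0.22). For HERC6, the value was 0.10 (95% interval -0.07 to 0.27), and for UBE2L6 0.20 (95% interval -0.15 to 0.55). TRIM25, the ligase that activates RIG-I, was at 157 to 171 CPM, with a value of 0.00 (95% interval -0.10 to 0.11). TRIM21, a cytosolic antibody receptor, was at -0.03 (95% interval -0.23 to 0.17). TRIM25 overlaps DGKE and C17orf67 in the annotation.

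DTX3L, a ubiquitin ligase, and PARP9, its partner, act as a complex and start from one shared promoter on chromosome 3 in opposite directions. They overlap on opposite strands in the annotation, and the effect of this on their counts was not tested. DTX3L was at 52.1, 50.9 and 62.7 CPM in pBabe-GNA13 and 47.6, 41.7 and 60.1 CPM in pBabe-vector. The groups overlapped and each pair had the higher value in pBabe-GNA13. With the block the value of DTX3L was 0.16 (SE 0.06, adjusted p = 0.0497), just inside the threshold, and without it the adjusted p was 0.913. Without replicate 2 the adjusted p with the block was 0.469. PARP9 was at 0.13 with the block (SE 0.06, adjusted p = 0.134), also higher in all 3 pairs. PARP12 was at 0.07 (95% interval -0.08 to 0.21), and PARP14, an ADP-ribosyltransferase like PARP12, at -0.22 (95% interval -0.52 to 0.08).

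Of the 8 remaining effectors, IFI35 was lower and SAMD9 higher with the block. IFI35, an interferon-induced leucine zipper protein, was at 3.75, 3.85 and 2.53 CPM in pBabe-GNA13 and 5.51, 5.14 and 4.95 CPM in pBabe-vector. The lines did not overlap, and the log2 fold change of IFI35 was -0.62 (SE 0.20, edgeR adjusted p = 0.416) without the block and -0.63 (SE 0.15, adjusted p = 0.00241) with it, and without replicate 3 the adjusted p was 0.0693. SAMD9, a factor that restricts poxviruses, was at 1.98, 0.735 and 1.40 CPM in pBabe-GNA13 and 0.882, 0.532 and 0.374 CPM in pBabe-vector. Replicate 2 of pBabe-GNA13 lay within the range of pBabe-vector. For SAMD9 it was 1.18 in both fits (SE 0.46 and adjusted p = 0.522 without, 0.30 and 0.00562 with the block), on 12 to 74 reads per library. Without replicate 3 the adjusted p with the block was 0.0901. MX1, a dynamin-like GTPase and a classic mark of interferon exposure, was at 2.09 to 3.23 CPM, with a log2 fold change of -0.04 (95% interval -0.41 to 0.33). MX1 overlaps TMPRSS2 on the other strand, which had a mean of 737 CPM, and whether counting used the strand is not given in the sources used here.

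The rest of this group showed no call for the line. SP110, a nuclear body protein, was at 0.20 (95% interval from just below 0 to 0.40) and higher in all 3 pairs. ISG20, an exonuclease, was at -0.10 (95% interval -0.32 to 0.13), and IFI44, a cytoplasmic protein, at 0.25 (95% interval -0.28 to 0.79). IFI44L, a paralog of IFI44, was read 2 to 6 times in a library. XAF1 could not be compared at this depth.

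For most of the expressed genes the intervals were narrow enough to bound a change. With the block, the 95% interval lay within a log2 fold change of 1 in either direction for 32 of the 34 genes with at least 1 CPM, all except IFIT3 and IFITM2. Without the block this held for 25 of 34.

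Levels of some of the genes also differed between the pairs of cultures. The pair term of the edgeR fit was called at an adjusted p under 0.05 for 17 of the 43 genes, against 47.4% of all genes, and for 16 of the 34 with at least 1 CPM, against 56.5% at that level. The range over pairs was widest for HERC5, whose mean level differed 4.78-fold between the std pair and replicate 3. ISG20 was at 11.4, 17.0 and 4.48 CPM in pBabe-GNA13 and 15.2, 15.1 and 4.52 CPM in pBabe-vector, a 3.53-fold range over pairs. Both lines had their low value in replicate 3. UBE2L6 ranged 2.47-fold, IFI44 2.44-fold, PARP14 1.79-fold, IFI6 1.65-fold and HERC6 1.61-fold, also lowest in replicate 3. OAS3 ranged 2.13-fold and DTX3L 1.33-fold with replicate 3 the highest. Replicate 3 was the lowest pair for 9 of the 17 genes and the highest for 5, so that no single pair was high throughout. The labels do not say what the pairs share.

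**Figure D3:**
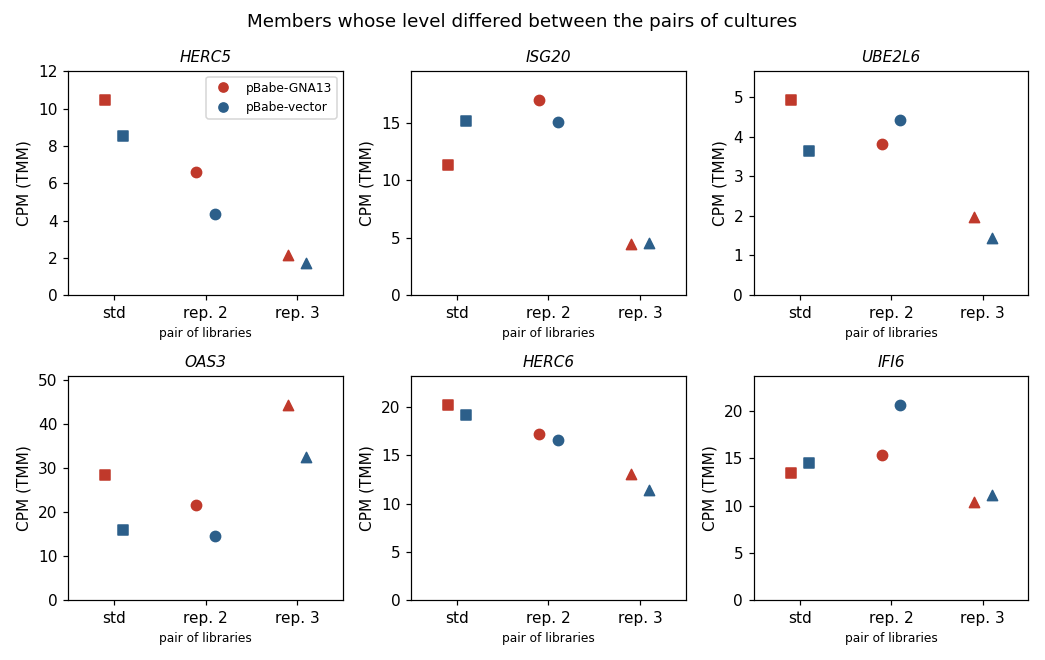
Level in CPM of 6 genes that differed between the pairs of libraries, with the pair on the horizontal axis, pBabe-GNA13 in red and pBabe-vector in blue. HERC5, ISG20, UBE2L6, HERC6 and IFI6 were lowest in replicate 3 of both lines, and OAS3 was highest there.

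The chromosome on which a gene lies moved with some of the results. Over genes with at least 1 CPM, the median log2 fold change was 0.29 on chromosome 12, 0.124 on chromosome 9, -0.2 on chromosome 20 and -0.124 on chromosome 22, and within 0.1 of 0 on the other autosomes and X. The shift of chromosome 12 was 0.278 to 0.304 in each pair. Of the 43 genes, 5 lie on chromosome 12, namely STAT2 and the 4 OAS genes, 1 on chromosome 9, 1 on chromosome 22 and 0 on chromosome 20. With values taken relative to the chromosome median, the fit with the block called 11 of the 43 genes, against 14.1% of all genes. These 11 were among the 14, and STAT2, EIF2AK2 and ADAR were missing. IRF7, OAS3, IFITM2 and IFITM3 were called here and also in each fit that left out a pair. The number of copies of each chromosome in the lines was not analysed here.

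**Figure D4:**
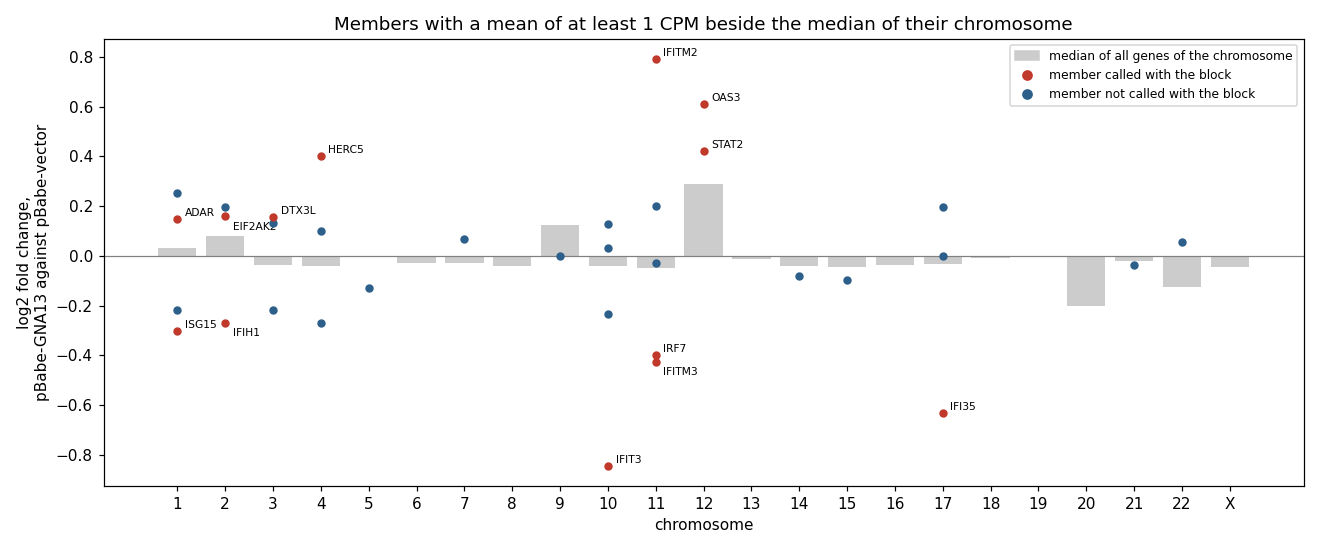
Log2 fold change with the block of the genes with a mean of at least 1 CPM (points, red where called) by chromosome, over grey bars that give the median log2 fold change of the genes with at least 1 CPM on that chromosome. STAT2 and OAS3 stand on chromosome 12 over a bar of 0.29, while IFITM2, IFITM3 and IRF7 on chromosome 11 stand far from a bar near 0.

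The upstream part of the pathway was measured by a list of 35 ligands, receptors, kinases, inhibitors and genes that induce interferon, of which 25 were in the table. None was called without the block (edgeR, 0 with an unadjusted p under 0.05), and 2 of 25 with it (against 19.7% of all genes), both higher. These were PTPN6, the phosphatase SHP-1 (log2 fold change 0.22, adjusted p = 0.00895), and TBK1, the kinase that activates IRF3 (0.20, adjusted p = 0.0109). Both lie on chromosome 12, and relative to its median their values turned to -0.07 and -0.09 and neither was called. Of the 25, MAVS on chromosome 20, the adaptor of RIG-I and MDA5, was the one called relative to its chromosome (0.17, adjusted p = 0.0207, against -0.03 without centring). Of the 10 interferon genes in the list only IFNE was in the table, at 0 CPM in 5 libraries and 0.0581 CPM in the other. JAK1 was low at 4.36 to 6.99 CPM, with a log2 fold change with the block of 0.28 (SE 0.14, adjusted p = 0.185). TYK2 was at 74.0 to 82.9 CPM with 0.10 (SE 0.05), IFNAR1 at 99.1 to 108 CPM with -0.01 (SE 0.05) and IFNAR2 at 1.05 to 1.84 CPM with -0.09 (SE 0.25). Per kilobase, TYK2 was at 9.08 and IFNAR1 at 6.55 CPM per kb, and JAK1 at 0.403 and IFNAR2 at 0.0987 CPM per kb. Without the block, the smallest unadjusted p-values next to that of TBK1 were those of IFNGR1, a chain of the interferon gamma receptor, and JAK2, the kinase of that receptor, both above 0.1.

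A second list held 51 further interferon-stimulated genes that are not among the 43, and 46 of them were in the table. None was called without the block, 10 had an unadjusted p under 0.05 (against 8.46% of all genes), and 12 of 46 were called with the block (against 19.7% of all genes), 6 in each direction. GBP2, a GTPase induced by interferon gamma, was at 2.73, 1.94 and 2.47 CPM in pBabe-GNA13 and 3.53, 5.46 and 8.51 CPM in pBabe-vector, with no overlap. Its log2 fold change was -1.22 with the block (SE 0.19, edgeR adjusted p = 2.7e-05). ZNFX1, a helicase-like sensor at mitochondria, had -0.38 (SE 0.06, adjusted p = 1.61e-05) and TRIM14, a mitochondrial adaptor, 0.61 (SE 0.07, adjusted p = 1.04e-07). ZNFX1 lies on chromosome 20 and TRIM14 on chromosome 9, and relative to the medians there they were at -0.18 (adjusted p = 0.0363) and 0.49 (adjusted p = 9.84e-06). Relative to the chromosome median, 9 of the 46 were called with the block, against 14.1% of all genes. As in the list of 43, the called genes went in both directions.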

How the data were processed

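RNA-seq libraries of 3 cultures each of LNCaP pBabe-vector and pBabe-GNA13, paired-end reads of 150 nucleotides, were analysed. Per the study's methods, the authors checked read quality with FastQC 0.11.7, aligned with STAR to Gencode 38 and counted reads per gene with featureCounts. The deposited values are raw read counts for 17297 gene symbols, and TMM, limma and log2 CPM of the study's own analysis had not been applied to them. The STAR version and strand setting are not given in the sources used here. Library totals were 33002160 to 40628970 counts. All 6 columns were used. Reads carry no molecular identifiers, so floors cover counting error only.

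Counts were normalized by TMM (factors 0.963 to 1.05) and tested over all genes, with no filter, by the quasi-likelihood F test of edgeR 4.0.16 in R 4.3.3 (functions glmQLFit and glmQLFTest), with the line as the only term, Benjamini-Hochberg adjustment, and calls at an adjusted p under 0.05. Log2 CPM used a prior count of 2. A second fit added the pair of libraries as a block. Pairs came from column headings (std with std, 2 with 2, 3 with 3). The heading of the pBabe-GNA13 std library repeats the number 2, so it was tied to its line and tag only, and what std means was not found. Deviations from the group means correlated at r = 0.603 to 0.841 within pairs and -0.692 to 0.0579 between pairs (over 14059 genes, which are not independent replicates). The deviations of a line cancel out over its libraries, so the values between pairs follow in part from those within pairs. The block is given wherever it changed a call. Chromosome-centred values subtract, per library, the median deviation of genes with at least 1 CPM on the chromosome.

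The 43 members and all lists were chosen with earlier results of these data known. All members are named. Full statistics are given for those called in either fit and the 5 largest changes at 1 CPM or more. For the other lists, calls are counted, and the 3 genes of smallest p, the called pathway genes, JAK1, IFNAR1, IFNAR2 and TYK2 are named. A further gene of this rule is not reported here. Symbols were matched to Gencode 44 (GRCh38) for positions and exon length, 13773 by current and 691 by older symbol, 2833 not at all, and all 43 members matched. Promoters came from RefSeq (GRCh38.p14). Alternatives were DESeq2 1.42.0, limma-trend (limma 3.58.1), other size factors, a filter at 1 CPM, no abundance trend, a stricter threshold, chromosome centring, and leaving out libraries or pairs. Permutation tests used SciPy 1.17.1, and figures matplotlib 3.10.9.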

Additional observations from a re-analysis of the deposited data

How the results depend on the processing

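With the pair of libraries as a block (the replicate block), 14 of the 43 genes and 3407 of all genes were called, against 0 and 24 without the pairing. Relative to chromosome medians and with the block, 11 of the 43 and 2435 of all genes were called, and with the block at an adjusted p under 0.01, 8 and 2105. In the fit with the block, 11 of the 43 and 3266 of all genes were called without the std pair, 9 and 2550 without replicate 2, and 8 and 2250 without replicate 3. Without the block, leaving out each library gave 0 of the 43 in every case and 2 to 15 of all genes. DESeq2 called 271 genes, limma-trend 5, and edgeR at an adjusted p under 0.01 called 2, with 0 of the 43 genes each time. The cause of these differences was not tested. Other size factors, the filter at 1 CPM, the fit without abundance trend and chromosome centring without the block left the count of the 43 genes at 0. The median log2 fold change of the 43 genes lay between -0.01 and 0.13 under all alternatives, the negative value without pBabe-vector replicate 3. The count of 17 genes that differed between pairs was 12 to 17 under its alternatives.

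DDX58 was at 0.0069 with upper-quartile factors, 0.0037 with the filter and 0.0033 with limma-trend. OAS2 was at -0.12 with limma-trend, -0.23 relative to chromosome medians and -0.27 with the block added, and OASL at -0.0014 and -0.029 in the last 2 of these. TRIM21 was at 0.025 and 0.020 there, and IFIT1 at -0.010 with limma-trend. When libraries or pairs were left out, 21 genes changed sign, and of these only HERC5 was called with the block. With each library left out, the log2 fold change of IRF9 ranged from -0.20 to 0.21, IRF1 from -0.23 to 0.020, DDX58 from -0.11 to 0.050, OAS2 from -0.68 to 0.61, OASL from -0.12 to 0.61, IFIT1 from -0.25 to 0.34 and BST2 from -0.43 to 0.76. IFI6 ranged from -0.42 to 0.027, UBE2L6 from -0.17 to 0.48, USP18 from -0.041 to 0.18, HERC5 from -0.16 to 1.07, HERC6 from -0.093 to 0.26, TRIM25 from -0.024 to 0.036 and TRIM21 from -0.14 to 0.036. PARP12 ranged from -0.015 to 0.13, PARP14 from -0.41 to 0.034, MX1 from -0.23 to 0.098, ISG20 from -0.55 to 0.30, IFI44 from -0.14 to 0.50 and XAF1 from -1.86 to 1.85. With the block and each pair left out, IRF9 ranged from -0.25 to 0.21, IRF1 from -0.29 to 0.042, DDX58 from -0.071 to 0.066, OAS2 from -0.87 to 0.40, OASL from -0.20 to 0.84, IFIT1 from -0.41 to 0.38 and BST2 from -0.51 to 0.81. TRIM25 ranged from -0.00023 to 0.011, TRIM21 from -0.13 to 0.056, MX1 from -0.17 to 0.038, ISG20 from -0.27 to 0.11, IFI44L from -0.097 to 0.75 and XAF1 from -2.23 to 2.26. Without the std pair DDX58 was at 0.0145 and MX1 at 0.028. At this depth IFI27, BST2 and OAS2, with 0 to 19 reads in a library, had 95% intervals wider than a log2 fold change of 1 in at least one direction.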
